A study of Homo sapiens with 2 samples.

Results

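The ABC genes encode ATP-binding cassette proteins, and 45 of the 62699 genes with counts were taken here by their symbols. A symbol had to be ABC, a family letter from A to G and a number. This pattern matched 47 gene IDs, of which 2 carried the pseudogene symbol ABCC13 and were left out. The peptide transporter genes TAP1 and TAP2, and CFTR, belong to the family but have other symbols. RNA was measured by sequencing of polyadenylated RNA from cells labelled HCC1954, an established human breast cancer line described in the labels as HER2-positive. The series asks about the long non-coding RNA LINC01235. There are 2 libraries, 1 with the genotype label ASO-1235 and 1 with ASO-NC. The labels give no dose or time, do not spell out what ASO and NC stand for, and do not say whether more than a single culture stood behind a library.

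The ASO-1235 library held 37916307 counts and the ASO-NC library 48092494. With 1 library per group no difference has a replicate check, so no p-value is given and a ratio speaks of this pair of libraries alone. It divides ASO-1235 by ASO-NC after TMM scaling, which sets the libraries to a common total from the bulk of their genes, and levels are in CPM, counts relative to the scaled library total. Counts between 1 and 1000 were even numbers for 64.0% of genes in the ASO-1235 library and 67.5% in the ASO-NC library, as happens when each mate of a read pair is counted. Exact 95% intervals, given in brackets, were therefore taken on counts divided by 2. They cover counting error only. LINC01235 had 0 counts in the ASO-1235 library and 1337 in the ASO-NC library, at least 373-fold lower against a floor of 3 counts. ERBB2, which encodes HER2, stood at 4628 CPM in the ASO-1235 library and 4860 CPM in the ASO-NC library, and all 7 epithelial and HER2 markers were at 142 CPM or more in each. HCC1954 is commonly described as lacking estrogen and progesterone receptors. In these libraries ESR1 was at 61.4 CPM with ASO-1235 and 58.3 CPM with ASO-NC, and PGR was at 1056 CPM with ASO-1235 and 974 CPM with ASO-NC. At the level of RNA this goes against that description, and receptor protein was not measured. Of 14 markers of other cell types, 4 reached a mean of 1 CPM, and the summed level of the list was 52.6 CPM with ASO-1235 and 59.9 CPM with ASO-NC, mostly COL1A1. Of the 4, LYZ was called lower, and their part in the ABC ratios was not tested. Of the fibroblast markers, COL1A1 was at 39.9 CPM with ASO-1235 and 44.3 CPM with ASO-NC. DCN had 16 counts with ASO-1235 and 18 with ASO-NC, COL1A2 had 0 and 2, and PDGFRB was at 0 in both. In bulk RNA, fewer cells with a transcript and less of it per cell cannot be told apart.

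ABC transporters bind ATP on a pair of cytosolic domains and use its hydrolysis to move a substrate across a membrane through 2 bundles of membrane helices. Some are made as a single long chain and others as shorter chains that pair up. Members of the A and G families mostly move lipids and sterols, several of the B, C and G families pump drugs and conjugated anions out of cells, and others sit in mitochondria, peroxisomes or lysosomes. The E and F families kept the ATP-binding domains but have no membrane part, and work on ribosomes. In breast cancer the family is known best for drug efflux.

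Of the 45 genes, 30 reached a mean of 1 CPM over both libraries and 15 did not. A gene was called at a ratio of 1.5 or more, or its inverse, with an interval that excluded 1. ABCA1, the cholesterol and phospholipid exporter that loads apolipoprotein A-I, was the single ABC gene called, at a ratio of 1.87 (1.43 to 2.45). That is 1 of 30 higher, against 4.31% of the 13883 genes tested, and 0 of 30 lower, against 1.82%. These shares were near those of all genes. Over all genes 599 were higher and 253 lower, against 870 and 151 with plain totals for scaling. At 2-fold 0 of the 30 were higher, against 1.44% of all genes, and 0 were lower, against 0.267%. Most ABC differences were smaller: 20 of 30 ratios lay below 1, against 50.7% of all genes, and 10 lay above 1, against 49.3%. The whole interval lay below 1 for 12 ABC genes, against 23.6% of all genes, and above 1 for 6, against 22.5%. The median log2 ratio of the 30 was -0.10 (sign-based 95% interval -0.29 to 0.0050), against -0.0048 over all genes. With the trend on GC content and length described below removed, it was -0.065, against -0.018 over all genes.

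**Figure D1:**
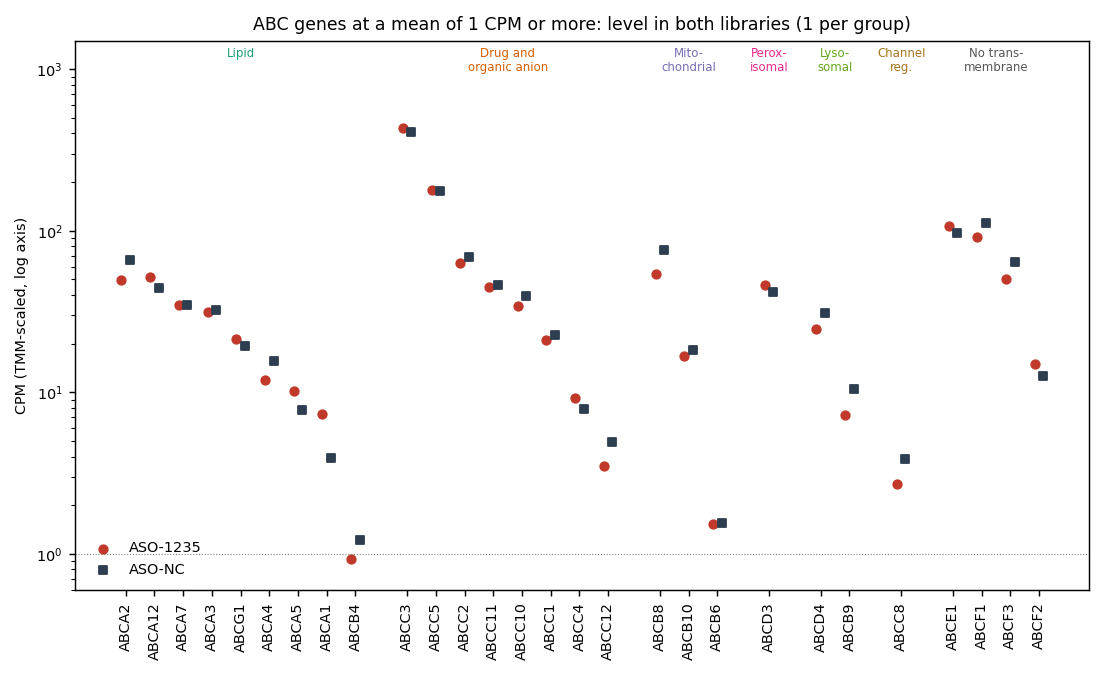
Level of 28 of the 30 ABC genes kept, in CPM on a log axis, with ASO-1235 as circles and ASO-NC as squares, 1 library each. Genes are grouped by role. ABCC3 stands highest, at 430.1 CPM with ASO-1235 and 409 CPM with ASO-NC, and ABCA1 shows the widest gap, at 7.35 CPM with ASO-1235 and 3.94 CPM with ASO-NC.

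Among the lipid transporters, 9 of 17 were kept. ABCA1 had 287 counts in the ASO-1235 library and 184 in the ASO-NC library, or 7.35 and 3.94 CPM. It remained called in every alternative tried except a threshold of 2-fold, with log2 ratios from 0.77 to 0.98. The gene (ENSG00000165029.17) spans bases 104781002 to 104928237 of chromosome 9 (GRCh38, minus strand). Its promoter is a known target of the liver X receptors (LXR), which bind a pair of hexamers spaced by 4 bases with their partner RXR and are switched on by oxidised sterols. The 250 bases before the RefSeq start of ABCA1 (chr9:104928156-104928405, minus strand, GRCh38.p14) are shown with those of ABCB8 (chr7:151028200-151028449, plus strand), which had a ratio of 0.710, and of ABCC5 (chr3:184017885-184018134, minus strand), which had a log2 ratio of 0.0050. All are written 5′ to 3′ on the strand of the gene, and capitals mark the LXR-type repeat (DR4), the E-box CACGTG and the GC box GGGCGG, on either strand.
ABCA1: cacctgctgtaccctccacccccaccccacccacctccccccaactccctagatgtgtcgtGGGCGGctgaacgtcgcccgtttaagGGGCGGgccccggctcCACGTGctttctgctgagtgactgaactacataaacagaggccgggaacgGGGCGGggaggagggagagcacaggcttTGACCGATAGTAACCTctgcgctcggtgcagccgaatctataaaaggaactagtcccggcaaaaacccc
ABCB8: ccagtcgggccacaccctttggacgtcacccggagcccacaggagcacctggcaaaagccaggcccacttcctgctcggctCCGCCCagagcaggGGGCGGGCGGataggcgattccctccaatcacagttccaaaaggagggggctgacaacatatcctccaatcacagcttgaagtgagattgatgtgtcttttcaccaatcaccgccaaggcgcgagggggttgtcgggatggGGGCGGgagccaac
ABCC5: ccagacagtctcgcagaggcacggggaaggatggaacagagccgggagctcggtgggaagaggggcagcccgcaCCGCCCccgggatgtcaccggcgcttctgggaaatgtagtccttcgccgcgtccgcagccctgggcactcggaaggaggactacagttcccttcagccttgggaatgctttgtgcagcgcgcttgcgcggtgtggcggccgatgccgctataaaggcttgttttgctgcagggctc
In ABCA1 the repeat reads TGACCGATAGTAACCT and runs from base -69 to base -54, counted back from the start, with an E-box at -147 to -142 and 3 GC boxes. No 2 of these overlap. In ABCB8 there are 4 GC boxes, 2 of which overlap by 2 bases, and in ABCC5 there is 1. The repeat was written loosely enough to take in the form known from ABCA1, so its presence there is no finding. It occurred in 28 of 35116 RefSeq promoter windows of the same length (0.0797%) and in 1 of the 53 windows of ABC genes, which belong to 35 of the 45 members. CACGTG was in 9 of the 53 ABC windows and in 6.34% of all windows, and GGGCGG in 25 of the 53 and in 42.6% of all. The ABC windows were richer in GC, with a median of 61.6%, against 58% over all windows. A match of letters shows no binding.

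The other lipid transporters stayed within 1.5-fold. ABCG1, which passes cholesterol to high-density lipoprotein and is also an LXR target, had 832 counts with ASO-1235 and 906 with ASO-NC, or 21.3 and 19.4 CPM, a ratio of 1.10 (0.959 to 1.26). Its interval held 1, and with the trend on GC content and length removed it was 1.18 (1.03 to 1.35). ABCA12, which loads lipid into the lamellar bodies of keratinocytes, had 2007 and 2058 counts (51.4 CPM with ASO-1235 and 44.1 CPM with ASO-NC), a ratio of 1.17 (1.07 to 1.27). ABCA5, found on late endosomes and lysosomes, had 398 and 364 counts (10.2 CPM with ASO-1235 and 7.80 CPM with ASO-NC), at 1.31 (1.06 to 1.61). Both ratios came close to 1 once the GC and length trend was removed, at 1.03 (0.944 to 1.13) for ABCA12 and 1.04 (0.847 to 1.28) for ABCA5. In the other direction, ABCA2, an endolysosomal lipid transporter best known from the brain, had 1933 counts with ASO-1235 and 3085 with ASO-NC (49.5 and 66.1 CPM), a ratio of 0.749 (0.691 to 0.813). ABCA4, the retinoid transporter of photoreceptors, had 465 and 732 counts (11.9 CPM with ASO-1235 and 15.7 CPM with ASO-NC), at 0.760 (0.642 to 0.898). Both stayed below 1 without the trend, at 0.812 (0.748 to 0.880) for ABCA2 and 0.774 (0.654 to 0.915) for ABCA4. ABCA7, an exporter of phospholipids, had 1346 and 1630 counts (34.5 CPM with ASO-1235 and 34.9 CPM with ASO-NC), at 0.987 (0.890 to 1.09). ABCA3, which fills the surfactant bodies of the lung, had 1233 and 1503 counts (31.6 CPM with ASO-1235 and 32.2 CPM with ASO-NC), at 0.981 (0.880 to 1.09). ABCB4, the phosphatidylcholine flippase of bile canaliculi, had 36 and 57 counts (0.922 CPM with ASO-1235 and 1.22 CPM with ASO-NC), too few to place its ratio (0.394 to 1.41). The lipid transporters thus went both ways. Their median log2 ratio was -0.018 (-0.40 to 0.39), and it was above 0 under 5 of the alternatives, among them scaling by total count (0.067) and removal of the trend (0.057). Over all genes the median was 0.080 with scaling by total count and -0.018 without the trend. The 8 lipid transporters not kept had at most 6 counts in a library. ABCA6 had 6 counts with ASO-1235 and 4 with ASO-NC, ABCA10 had 6 and 2, ABCA9 and ABCG5 each had 5 and 2, and ABCG8 had 4 and 2. ABCA13 and ABCG4 each had 0 with ASO-1235 and 4 with ASO-NC, and ABCA8 had 0 in both.

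Among genes that work beside ABCA1 and ABCG1 no call was made. Of 16 listed LXR and cholesterol efflux genes 13 were kept, and 0 were called in either direction. The median log2 ratio was -0.083, with 9 ratios below 1, against 50.7% of all genes. Once the trend was removed it was 0.021, with 7 ratios above 1 and 6 below, against 53.2% of all genes below. Picked out after their values were seen, the receptor genes NR1H3 and NR1H2 stood at 1.08 (0.876 to 1.33) and 0.936 (0.858 to 1.02). MYLIP, an LXR target that degrades the LDL receptor, had 2171 counts with ASO-1235 and 1833 with ASO-NC, a ratio of 1.42 (1.30 to 1.55). SREBF1 and SCD, LXR targets of fatty acid synthesis, lay at 0.746 (0.700 to 0.795) and 0.710 (0.680 to 0.740). These LXR targets stood on both sides of 1, but they were picked by value and say nothing of LXR targets as a set. A part of LXR in the ABC ratios was not tested. Flippases of the P4-ATPase family and scramblases, which move phospholipids between membrane leaflets without ABC domains, had 15 of 20 kept and 0 called. Their median was 0.075, with 12 ratios above 1, against 49.3% of all genes. Once the trend was removed it was 0.011, with 8 ratios above 1 and 7 below, against 53.2% of all genes below.

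The drug and organic anion transporters included the most abundant ABC gene per kilobase of exon, and their ratios ran from 0.710 to 1.16. ABCC3, an exporter of glucuronides and bile salts, had 16794 counts with ASO-1235 and 19087 with ASO-NC, or 430.1 and 409 CPM, a ratio of 1.05 (1.02 to 1.08). With the trend removed its ratio was 1.12 (1.09 to 1.16), outside that interval. Per kilobase of exon it was the most abundant of the family, with 44.7 CPM per kilobase in ASO-1235 cells and 42.5 in ASO-NC cells. It made up 24.4% of the summed per-kilobase level of all ABC genes with ASO-1235 and 22.1% with ASO-NC. ABCC5, an exporter of nucleotide analogues, had 6939 and 8269 counts (178 CPM with ASO-1235 and 177 CPM with ASO-NC) and a log2 ratio of 0.0050, with a ratio interval of 0.959 to 1.05. ABCC2, which exports conjugated bilirubin in the liver, had 2472 and 3194 counts (63.3 CPM with ASO-1235 and 68.4 CPM with ASO-NC), at 0.925 (0.859 to 0.997). ABCC11, the transporter of apocrine glands whose variants set earwax type, had 1753 and 2145 counts (44.9 CPM with ASO-1235 and 45.9 CPM with ASO-NC), at 0.977 (0.893 to 1.07). Its exons overlap the abundant LONP2 on the opposite strand over 4.04% of their bases. ABCC10, which confers taxane resistance when overexpressed, had 1336 and 1853 counts (34.2 CPM with ASO-1235 and 39.7 CPM with ASO-NC), at 0.862 (0.779 to 0.953), and its interval held 1 once the trend was removed (0.855 to 1.05). ABCC1, the first known multidrug resistance protein of the C family, had 823 and 1055 counts (21.1 CPM with ASO-1235 and 22.6 CPM with ASO-NC), at 0.933 (0.818 to 1.06). ABCC4, which exports cyclic nucleotides and prostaglandins, had 358 and 368 counts (9.17 CPM with ASO-1235 and 7.88 CPM with ASO-NC), at 1.16 (0.942 to 1.44). ABCC12 lies next to ABCC11 on chromosome 16, 10.9 kb away, and had 136 and 229 counts (3.48 CPM with ASO-1235 and 4.90 CPM with ASO-NC), at 0.710 (0.518 to 0.967).

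The classical multidrug pumps had few or no counts. ABCB1, the gene of P-glycoprotein, had 0 counts with ASO-1235 and 1 with ASO-NC, and ABCG2, the breast cancer resistance protein, had 10 and 4. A floor of 3 counts amounts to 0.0768 CPM in the ASO-1235 library and 0.0643 CPM in the ASO-NC library. Of the others not kept, ABCB11, the bile salt pump, had 6 and 4 counts, ABCC6, which has near-identical pseudogene copies, had 0 and 4, and ABCB5 had 0 in both. The 8 genes kept of 13 had a median log2 ratio of -0.067 (-0.49 to 0.22), which was 0.018 with scaling by total count and -0.0069 without the trend. None was called. Over all genes the median was 0.080 with scaling by total count and -0.018 without the trend. Among 28 listed xenobiotic receptors and conjugating enzymes, 23 were kept. Of these 2 were higher (8.70%, against 4.31% of all genes) and 0 were lower (against 1.82%), and the median was -0.18, or -0.20 without the trend. The higher genes were AHR, the aryl hydrocarbon receptor, with 1785 counts with ASO-1235 and 912 with ASO-NC, a ratio of 2.34 (2.09 to 2.63), and its target CYP1A1, with 6431 and 5059 counts, at 1.52 (1.44 to 1.60). The other 21 lay within 1.5-fold or had intervals that held 1. Carriers that take drugs and organic anions up had 7 of 17 kept, 0 called and a median of -0.30, which was -0.15 without the trend. The AHR core motif GCGTG was in 21 of the 53 ABC promoter windows (39.6%) and in 32.2% of all windows, and the NRF2-type core TGACNNNGC in 9 (17.0%) and in 10.9%. The 53 windows come from 35 genes and were richer in GC than all windows, and a link of these motifs to the ratios was not tested.

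**Figure D2:**
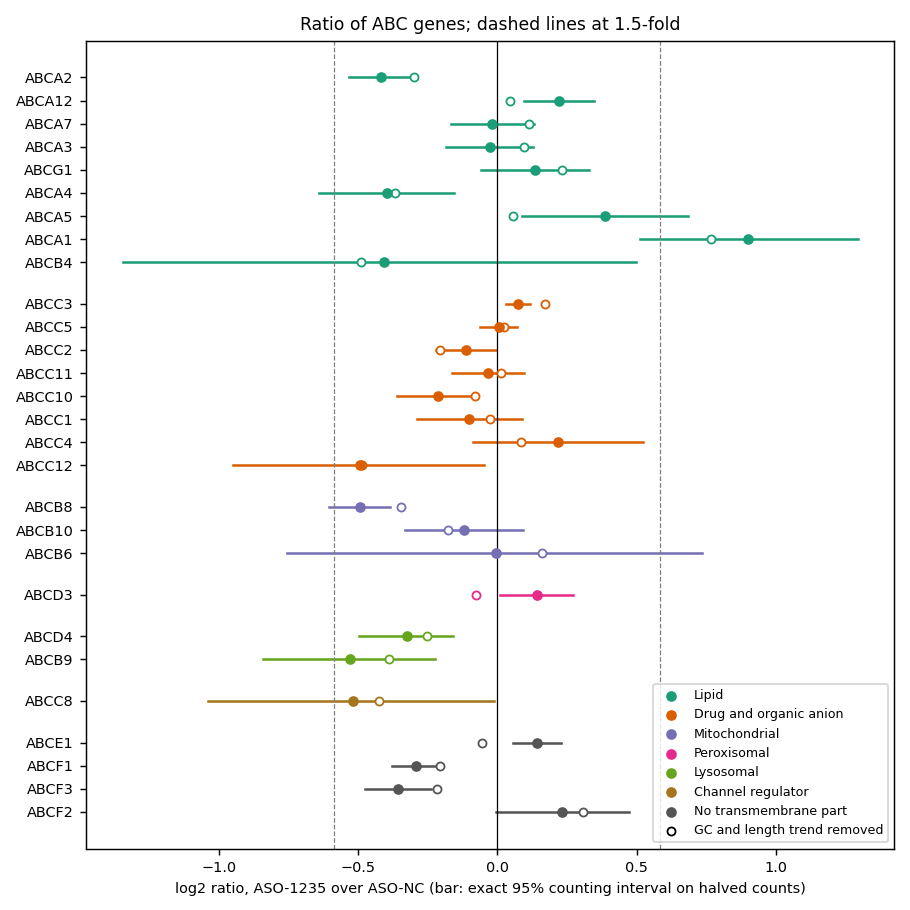
Log2 ratio, ASO-1235 over ASO-NC, of 28 of the 30 ABC genes kept, by role. Filled points are ratios, bars their exact 95% counting intervals on halved counts, and open points the ratios without the GC and length trend. Dashed lines mark 1.5-fold. Of these, ABCA1 alone lies past the upper line, and no gene lies past the lower one.

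Among the mitochondrial transporters, ABCB8, an inner membrane transporter linked to iron export, had 2114 counts with ASO-1235 and 3561 with ASO-NC, or 54.1 and 76.3 CPM, a ratio of 0.710 (0.657 to 0.766). It was 0.788 (0.729 to 0.850) without the trend, and its interval lay below 1 under all 6 alternatives tried for single genes. ABCB10, which supports haem synthesis, had 656 and 852 counts (16.8 CPM with ASO-1235 and 18.2 CPM with ASO-NC), at 0.921 (0.795 to 1.07). ABCB6, a porphyrin transporter also found outside mitochondria, had 60 and 72 counts (1.54 CPM in each library), at 0.996 (0.593 to 1.66), above 1 in 4 of the alternatives. In GENCODE 29 another gene on the same strand covers 54.7% of the exon bases of ABCB6, so its counts are uncertain. The partner genes of these transporters differed by small amounts. Of 17 genes of haem synthesis and transport, all were kept and 0 called, with a median log2 ratio of -0.11 that was -0.039 without the trend. Intervals lay below 1 for 7 of the 17 (41.2%, against 23.6% of all genes) and above 1 for 1 (5.88%, against 22.5%). Without the trend they did so for 3 each way (17.6%), against 21.2% of all genes below and 16.2% above. Of 24 genes of iron-sulfur cluster assembly, 23 were kept and 0 called. Ratios lay below 1 for 18 of the 23, against 50.7% of all genes, with a median of -0.069. Without the trend this was 14 of the 23, against 53.2%, and a median of -0.017, against -0.018 over all genes.

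Among the peroxisomal transporters, ABCD3, which brings in branched-chain fatty acids and bile acid precursors, had 1798 counts with ASO-1235 and 1950 with ASO-NC, or 46.0 and 41.8 CPM, a ratio of 1.10 (1.01 to 1.21) that was 0.949 (0.866 to 1.04) without the trend. ABCD2, another fatty acid transporter of peroxisomes, had 0 counts in both libraries. Mitochondrial and peroxisomal transporters together, 6 kept of 7, had a median of -0.11 (-0.49 to 0.14). No order of the role groups was tested. All 16 listed peroxins, the proteins that build peroxisomes, were kept with 0 called and a median of -0.0041. Of 18 listed enzymes of peroxisomal fatty acid oxidation 16 were kept. Among them 1 was higher (6.25%, against 4.31% of all genes) and 0 were lower (against 1.82%), shares near those of all genes. The gene called was EHHADH, the bifunctional enzyme, with 312 counts with ASO-1235 and 202 with ASO-NC and a ratio of 1.85 (1.43 to 2.40).

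Both lysosomal transporters had ratios below 1, within 1.5-fold. ABCB9, a peptide transporter related to TAP, had the lowest ratio of the 30 genes, with 282 counts with ASO-1235 and 487 with ASO-NC, or 7.22 and 10.4 CPM, a ratio of 0.692 (0.559 to 0.856). Without the trend it was 0.763 (0.616 to 0.943). Its exons overlap those of OGFOD2 and ARL6IP4 on the opposite strand over 12.5% and 12.0% of their bases. Another gene on that strand (ENSG00000256028), with 0 counts in both libraries, covers 20.7%. The strand setting is not given in the sources used here, so the counts of ABCB9 are uncertain. ABCD4, which releases vitamin B12 from lysosomes, had 968 and 1451 counts (24.8 CPM with ASO-1235 and 31.1 CPM with ASO-NC), at 0.798 (0.710 to 0.896). Of the sulfonylurea receptor genes, which regulate potassium channels and transport nothing, ABCC8 had 105 and 180 counts (2.69 CPM with ASO-1235 and 3.85 CPM with ASO-NC), at 0.698 (0.487 to 0.991), and ABCC9 had 6 counts in each library. The interval of ABCC8 held 1 once the trend was removed (0.519 to 1.06). KCNJ11, which encodes a channel pore that pairs with ABCC8, had 374 and 518 counts, at 0.863 (0.711 to 1.05), and KCNJ8 had 0 in both.

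The ABC proteins of the ribosome were abundant and divided. Per kilobase of exon, ABCF1 and ABCE1 followed ABCC3 by the mean of both libraries. They had 20.1 and 17.0 CPM per kilobase in ASO-1235 cells, and 24.6 and 15.41 in ASO-NC cells. ABCC5 came next, at 15.53 in ASO-1235 cells and 15.48 in ASO-NC cells, where it stood just above ABCE1. Length was taken as all annotated exon bases of a gene, and the order with other lengths was not tested. ABCE1, which splits ribosomes after termination, had 4164 counts with ASO-1235 and 4509 with ASO-NC, or 107 and 96.6 CPM, a ratio of 1.10 (1.04 to 1.17). It was 0.964 (0.908 to 1.02) once the trend was removed, and OTUD4 and ANAPC10 on the opposite strand overlap its exons over 4.41% and 7.49% of their bases. ABCF1, which binds the initiation factor eIF2, had 3556 and 5204 counts (91.1 CPM with ASO-1235 and 111 CPM with ASO-NC), at 0.817 (0.769 to 0.868). ABCF3, a cytosolic member of the F family, had 1962 and 3003 counts (50.2 CPM with ASO-1235 and 64.3 CPM with ASO-NC), at 0.781 (0.720 to 0.847). Their intervals lay below 1 without the trend too, at 0.867 (0.816 to 0.921) for ABCF1 and 0.861 (0.793 to 0.934) for ABCF3. ABCF2, another member of the F family, had 580 and 590 counts (14.9 CPM with ASO-1235 and 12.6 CPM with ASO-NC), at 1.18 (0.996 to 1.39), or 1.24 (1.05 to 1.46) without the trend. A readthrough gene, ABCF2-H2BK1, covers 45.8% of its exon bases, so its counts are uncertain. Of 16 listed partners in ribosome recycling and in the GCN2 pathway, which senses stalled ribosomes, 15 were kept and 0 called. Of these, 10 ratios lay above 1, against 49.3% of all genes, with a median log2 ratio of 0.043. With the trend removed 13 lay below 1, against 53.2% of all genes, and the median was -0.068, against -0.018.

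**Figure D3:**
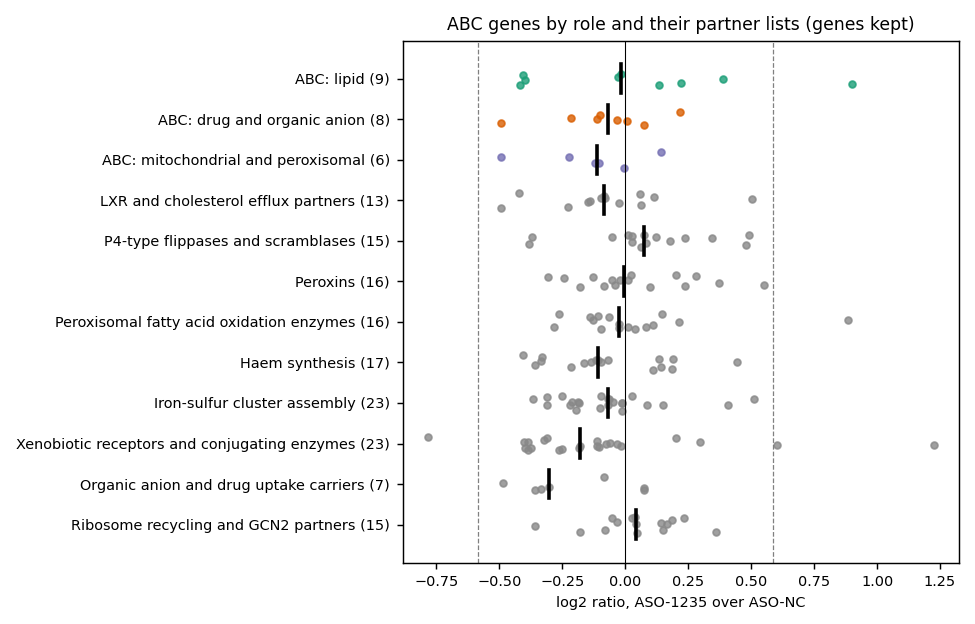
Log2 ratio, ASO-1235 over ASO-NC, of the ABC genes kept in 3 role groups (coloured) and of the genes kept in 9 partner lists (grey), with the number of genes in brackets. Black ticks are medians and dashed lines mark 1.5-fold. The ABC medians run from -0.11 to -0.018, and AHR and EHHADH lie furthest to the right among the partners.

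The ratio moved with the base composition of the transcripts. When genes were ranked by GC content in 5 bins, the 2717 poorest in GC had a median log2 ratio of 0.20 and the 2716 richest had -0.19. ABC transcripts were richer in GC than most, with a median of 52.3%, against 48.1% over all genes kept, and 18 of the 30 lay above 51.4%. Across the 30 genes, which are not independent replicates, Spearman's rho between GC content and ratio was -0.43, and it was -0.48 across 13581 genes of all kinds. The relation was therefore of like size inside the family. ABCA5, at 33.1% the poorest in GC of the 30, had a ratio of 1.31, and ABCB9, at 63.3%, had the lowest ratio. ABCA1, at 45.5%, stayed at 1.70 (1.30 to 2.24) with the trend removed. After that adjustment, 17 of the 30 ABC ratios lay below 1, against 53.2% of all genes. The intervals of 10 lay below 1, against 21.2%, and those of 4 above 1, against 16.2%. The part of base composition in the single ratios beyond this adjustment was not tested.

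**Figure D4:**
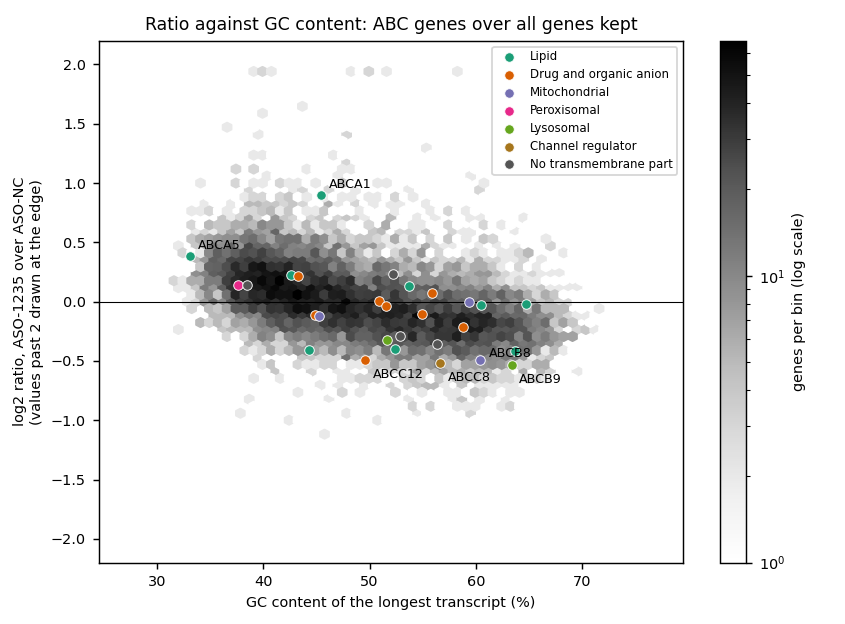
Log2 ratio, ASO-1235 over ASO-NC, against the GC content of the longest transcript for all genes kept (grey bins, darker for more genes, log scale) and for 28 of the 30 ABC genes kept (coloured by role). Ratios decline with GC content in both, with rho of -0.43 over the 30 ABC genes and -0.48 over all. ABCA1 has the highest ratio of the ABC genes.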

How the data were processed

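The authors deposited raw counts per gene, not normalized, for 2 libraries of polyadenylated RNA. Per the submitters' processing notes, the tools were STAR 2.7.11a and featureCounts 2.0.6 with hg38. Which annotation and strand setting were used is not given in the sources used here. Of the lines of the table, 62699 gene IDs had counts, and 1 ID without counts and 2 lines of coordinates were left out. Symbols came from a table of gene IDs, coordinates, lengths and GC content from GENCODE 29, and promoters from RefSeq (GRCh38.p14). Groups followed the genotype labels.

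Libraries were scaled with TMM on genes at 1 CPM in at least 1 library (edgeR 4.0.16, R 4.3.3). The factors were 1.03 for ASO-1235 and 0.971 for ASO-NC. edgeR served for scaling only, since 1 library per group allows no test. Genes were kept at a mean of 1 CPM over both libraries. Ratios have exact (Clopper-Pearson) 95% intervals given the sum of both counts, on halved counts. Without molecular identifiers, PCR copies count as separate reads. Medians used a prior count of 0.5. As an alternative, a dependence of log2 ratios on transcript GC and length was modelled with B-splines of 5 degrees of freedom and a robust fit (statsmodels 0.14.6), then subtracted. Other alternatives were DESeq2 1.42.0 size factors, upper quartile, total count, totals without mitochondrially encoded genes, other minimum levels, intervals on the deposited counts, 2-fold and a prior count of 5. The interval calculation was tested on simulated data in which every count was even. That test could not show how well halving suits these libraries, where only a part of the counts were even. Members kept are named except 2 that are not reported here, which counts and medians of groups include, and partner lists name genes called at 1.5-fold. The members, roles, lists and halving were chosen with earlier results of these data known. NR1H3, NR1H2, MYLIP, SREBF1, SCD and KCNJ11 were picked after their values were seen.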

Additional observations from a re-analysis of the deposited data

How the results depend on the processing

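ABCA1 was the single ABC gene called higher, and no ABC gene was called lower, under every alternative scaling, minimum level and interval tried, and without the GC and length trend. At 2-fold, 0 ABC genes were higher. The median log2 ratio of the ABC genes kept ran from -0.13 with DESeq2 size factors to -0.018 with scaling by total count. The median over all genes moved with it, from -0.035 to 0.080, so the ABC median was the lower in both settings. Of the single genes, 7 had intervals below 1 under all 6 alternatives for single genes (ABCA2, ABCA4, ABCB8, ABCB9, ABCD4, ABCF1 and ABCF3) and 2 above 1 (ABCA1 and ABCC3). The lower bound of ABCC3 came down to a log2 ratio of 0.00093 with DESeq2 size factors. Of 180 single values, 30 genes under 6 alternatives, 171 stayed inside the interval of the value reported. This count says little, since intervals on the deposited counts leave a ratio unchanged and each scaling moves all log2 ratios by the same amount. Only removal of the trend differs from gene to gene. It moved ABCA12, ABCA5, ABCB8, ABCC3, ABCD3, ABCE1 and ABCF3 outside their intervals. ABCD3 and ABCE1 turned below 1 with the trend removed, at log2 ratios of -0.076 and -0.053. Among those that turned above 1 were ABCA3, ABCA7, ABCB6 and ABCC11, at 0.097, 0.11, 0.16 and 0.013. No paired analysis was possible because each group has 1 library. Depth limits ABCB4, ABCB6, ABCC8 and ABCC12 most.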

Other observations

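Family genes outside the symbol pattern were low apart from TAP1. TAP1, a subunit of the peptide transporter that feeds MHC class I, had 977 counts in the ASO-1235 library and 1038 in the ASO-NC library, a ratio of 1.13 (0.993 to 1.28). With the GC and length trend removed it was 1.25, with an interval above 1. Its partner TAP2 had 16 counts with ASO-1235 and 27 with ASO-NC, and CFTR, the chloride channel of the C family, had 18 in each library. Of the ABC pseudogenes, ABCA11P had 63 counts with ASO-1235 and 43 with ASO-NC, and ABCA17P had 27 and 49. The other pseudogene IDs listed beside the family, among them those of ABCC6, had 0 in both.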
